A study of Homo sapiens with 6 samples.

Results

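HT29 is a human colorectal adenocarcinoma cell line. Described here are its genes after tryptophan depletion, 17960 in all, whose normalized counts averaged at least 10 over 2 untreated and 2 tryptophan-depleted libraries, out of 60676 genes listed and 33622 with any read in these libraries. The lowest mean inside this limit was 10.004 and the highest outside it 9.998. Of the members, 13014 are protein-coding. Untreated HT29 cells were kept in control medium and the depleted cells for 48 h in medium without tryptophan, and nothing in the labels sets the groups apart beyond the medium. Another pair of libraries, from HT29 cells without histidine for 48 h, served for a direct comparison and in an alternative fit of all 6 libraries. In the study, tryptophan depletion served to set the response to amino acid stress in general apart from that to histidine loss. The tryptophan-free medium was based on DMEM F-12 with dialyzed serum, and the methods do not say which base the control medium of the sequenced cells had, so the loss of tryptophan and a change of base medium or serum cannot be told apart. HT29 is a single tumour line, and whether the 2 libraries of a group came from separate cultures is not stated, so p-values measure the spread between these samples, which may be technical.

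The libraries held 46390819 and 52607332 reads in untreated and 50894717 and 59514618 in tryptophan-depleted cells, 96.9% to 97.4% of them in protein-coding genes. The untreated libraries stood further apart than the depleted ones, with a median absolute log2 difference between replicates of 0.0981 against 0.0668 over the members. All 14 colon epithelium markers were among the members, of which 7 rose and 4 fell, among them the transcription factors HNF4A (-1.33) and CDX1 (-2.13) and the surface antigen GPA33 (-1.27). Their summed level, most of it from the keratins KRT8 and KRT18, was 448940 and 476794 normalized counts in untreated and 630046 and 631239 in depleted cells. Markers of other cell types summed to 233 to 454 (7 leukocyte genes), 58.2 to 76.3 (7 fibroblast genes) and 123 to 161 (5 endothelial genes). The leukocyte markers CD2 and MS4A1, the fibroblast collagens COL1A2 and COL3A1, and the endothelial CDH5 and KDR were at 0 in every library. Of the 7 leukocyte genes 3 were tested, and they differed. CD14, a receptor for bacterial lipopolysaccharide, rose from 102 and 117 to 370.0 and 361 (1.73), the integrin chain ITGAM fell from 64.5 and 75.3 to 4.16 and 10.8 (-3.18), and CD79A did not pass (0.21). Their part in the immune lists below was not tested.

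Tryptophan is an essential amino acid that cells take up from outside. When it runs short, uncharged tRNA activates the kinase GCN2, encoded by EIF2AK4, which phosphorylates the initiation factor eIF2, lowers protein synthesis and favours translation of the transcription factor ATF4. ATF4 acts on genes of amino acid uptake, synthesis and tRNA charging through a composite site, the C/EBP-ATF response element. The kinase complex mTORC1 also senses amino acids, at the lysosome. Tryptophan is further degraded to kynurenine, a ligand of the aryl hydrocarbon receptor, by the enzymes IDO1 and TDO2.

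Levels are given as normalized counts, the authors' read counts divided by a factor for each library, and changes as the log2 fold change of depleted over untreated cells fitted by limma on log2(normalized count + 1), which understates the change of genes with few reads. A gene was called higher or lower at a Benjamini-Hochberg adjusted p under 0.05 over all members. Tryptophan depletion raised 6475 genes (36.1%) and lowered 6246 (34.8%), so that 70.8% of the members passed, and the groups did not overlap in 84.1%. The median log2 fold change over all members was 0.01. Most calls were small. Among the genes that rose, 2665 changed by under 0.5 on the log2 scale, 2009 by 0.5 to 1, 1376 by 1 to 2 and 425 by 2 or more. Among those that fell, the same classes held 2448, 1925, 1318 and 555 genes. At a log2 fold change of at least 1 in size, 1801 genes were higher (10.0%) and 1873 lower (10.4%). With this large a share called, the count of a list has meaning only beside these shares, and the size of the change matters more than the call.

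The largest changes are given for protein-coding genes that passed, averaged 500 normalized counts or more in the group where they were higher and did not overlap. The largest increases included enzymes of steroid and aldehyde reduction, membrane proteins and a lectin chaperone. AKR1C2 (chromosome 10, 4987775 to 5018031 in GRCh38), an aldo-keto reductase, stood at 159 and 200.5 normalized counts in untreated and 5205 and 5364 in depleted cells, a log2 fold change of 4.88 with a standard error of 0.0671 (limma adjusted p = 3.76e-108). Its neighbour AKR1C1 (chromosome 10, 4963253 to 4983283) stood at 1430.2 and 1484 against 33065 and 33939 (4.52 ± 0.0466, SE). These reductases are close copies of each other, so reads may have been split between them. LAMP3, a lysosomal membrane protein, went from 97.8 and 123 to 2943 and 3159 (4.78). UNC5B, a netrin receptor, went from 298 and 343 to 7850.4 and 7841 (4.61). CLGN, a lectin chaperone of the endoplasmic reticulum, went from 207 and 196 to 4592 and 4694 (4.52). In all 3 the change was many times the distance between replicates, which their choice by size favours. The inositol kinase ITPKA rose by 4.41, the sperm-egg fusion gene IZUMO1 by 4.67, the vascular GTPase effector RASIP1 by 4.18, the adhesion antigen CEACAM5 by 3.92 and the zinc finger gene ZNF467 by 3.88. That the groups did not overlap in these 10 genes is part of the rule that chose them.

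The largest decreases included those of intestinal proteins and of genes of DNA replication. SPINK4, a peptide of goblet cells, fell from 628 and 628 to 19.7 and 11.7 normalized counts, a log2 fold change of -5.28 with a standard error of 0.172 (limma adjusted p = 1.02e-61). CTSE, an aspartic protease, fell from 840.3 and 801 to 33.3 and 23.4 (-4.83). Both genes were left with few reads in both depleted libraries. FAM111B, a protease of replicating cells, went from 2158 and 2221 to 82.1 and 54.9 (-5.01). The others were the replication factor CDC45 (-4.56), the nuclease EXO1 (-4.50), the cell cycle transcription factor MYBL2 (-4.48), the checkpoint adaptor CLSPN (-4.44), the chemokine receptor CXCR4 (-4.48) and the nuclear membrane protein NRM (-4.41). Among these 9 genes the 2 depleted libraries differed most, by their ratio, in NRM (80.03 and 46.77) and SPINK4.

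**Figure D1:**
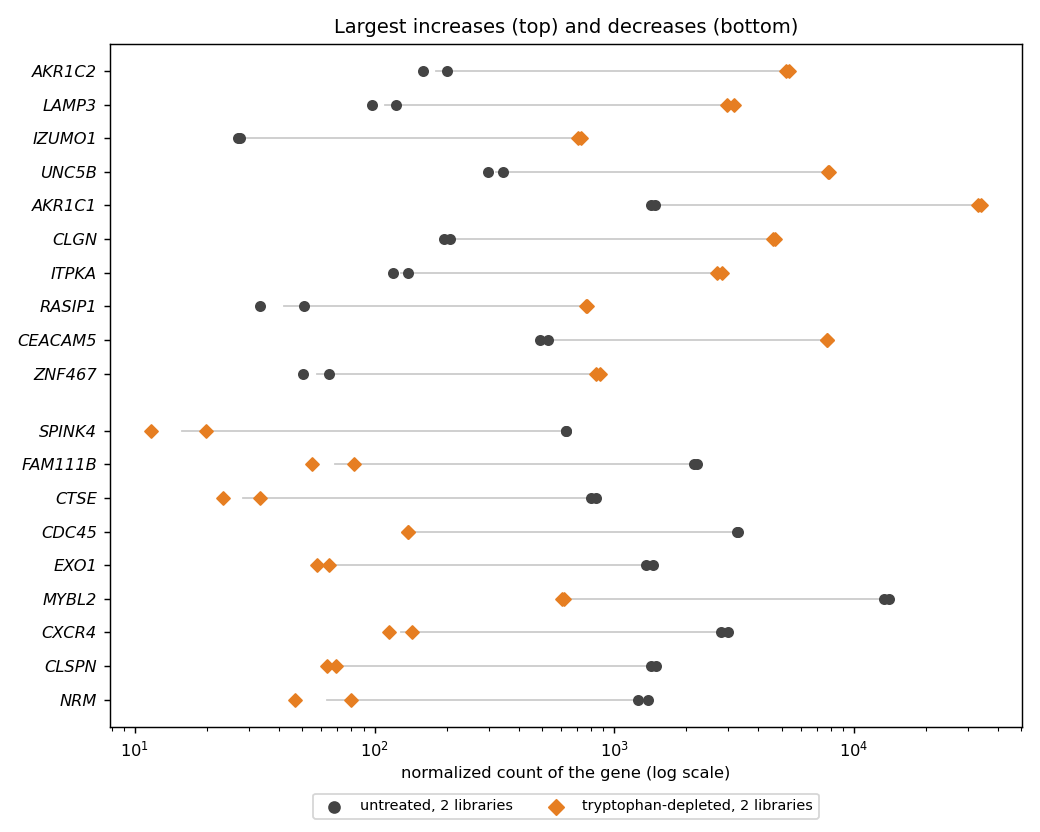
Normalized counts (log scale) of the 10 largest increases and 9 of the largest decreases, one point per library, with a line between the group means. AKR1C2 lies between 159 and 5364 and SPINK4 between 11.7 and 628, and by the rule of choice no gene shown has overlapping groups.

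The response was also read through 34 lists of genes of known function. The lists that moved most were those of DNA replication and mitosis, with medians of -2.88 and -2.14, followed by the 6 metallothionein and zinc genes tested (-1.21, 3 lower and 2 higher), and at the other end histones, ATF4 targets, interferon-stimulated genes, aryl hydrocarbon receptor targets and chaperones of the endoplasmic reticulum, with medians between 0.81 and 1.09. Lists of cytosolic ribosomal proteins, amino acid transporters and amino acid synthesis lay close to the median of all genes. The members described with their values in every library come from the up to 4 of each list that passed with the largest change and averaged 100 normalized counts or more where they were higher, together with genes fixed by name, and members beyond these are named with their log2 fold change after their values were seen. Of the genes chosen by these rules, the groups overlapped in ATF4, MT-CO2 and MT-ND1 alone. A choice by threshold and size favours such separation, and 84.1% of all members did not overlap. Whether reads were counted by strand is not stated, so reads of genes that overlap on opposite strands may not be told apart. Of 168 genes checked, 11 shared at least 10% of their exonic bases with other genes on the same strand and 27 on the opposite strand, the latter including DDIT3 (31.6%), CA9 (35.7%), ZFAS1 (36.4%) and HMGCS1 (37.7%).

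ATF4 targets rose as a group. Of 23 tested genes, 20 rose and 2 fell, against 36.1% and 34.8% of all members, and their median log2 fold change was 1.04 against 0.01. ATF4 itself was at 34802 and 35567 normalized counts in untreated and 35158 and 35769 in depleted cells. Its groups overlapped and it did not pass (log2 fold change 0.01, limma adjusted p = 0.855), while quantile normalization gave -0.18 and an adjusted p of 6.15e-05. FGF21, a secreted hormone of the starvation response, was at 29.0 and 46.9 in untreated and 343 and 345 in depleted cells (log2 fold change 3.19 ± 0.162, SE, limma adjusted p = 1.64e-40). INHBE, a subunit of activin, rose from 120.4 and 123 to 993 and 1116 (3.10). Both are secreted and both were low in untreated cells. DDIT3, the transcription factor CHOP, rose from 1178 and 1157 to 4635 and 4655 (1.99). VLDLR, a lipoprotein receptor, rose from 357 and 358 to 1245 and 1319 (1.84). These 4 genes had the largest changes of the list, and in each the depleted libraries lay within a narrow range far above the untreated ones. DDIT4, an inhibitor of mTORC1, rose by 1.75, CHAC1, which degrades glutathione, by 1.56, and TRIB3, a pseudokinase that restrains ATF4, by 1.06. ASNS, the asparagine synthetase that is a classical ATF4 target, rose from 448 and 391 to 798 and 839 (0.97), though other genes overlap 49.3% of its exonic bases on the same strand. The exceptions were SLC7A11, the cystine transporter, which fell from 16600.0 and 17158 to 9564 and 9969 (-0.79), and ATF5, which fell by 0.17.

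The promoters of 3 genes of this response show where the composite site lies. Each window runs from 250 bases before the RefSeq start of the gene to 50 bases after it (GRCh38.p14), on the strand of the gene, and capitals mark the C/EBP-ATF response element, TGATGNAAN on either strand. AARS1, an aminoacyl-tRNA synthetase, is shown beside CHAC1 and FGF21 because its promoter carries the same 9 letters as that of CHAC1.
CHAC1 (chr15:40953221-40953520, + strand): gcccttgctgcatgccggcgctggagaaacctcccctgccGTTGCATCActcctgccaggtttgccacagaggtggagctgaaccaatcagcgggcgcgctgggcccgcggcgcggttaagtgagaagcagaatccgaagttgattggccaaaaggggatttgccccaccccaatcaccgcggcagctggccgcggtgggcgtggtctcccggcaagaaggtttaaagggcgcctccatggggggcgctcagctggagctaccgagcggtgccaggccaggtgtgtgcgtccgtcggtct
AARS1 (chr16:70289457-70289756, - strand): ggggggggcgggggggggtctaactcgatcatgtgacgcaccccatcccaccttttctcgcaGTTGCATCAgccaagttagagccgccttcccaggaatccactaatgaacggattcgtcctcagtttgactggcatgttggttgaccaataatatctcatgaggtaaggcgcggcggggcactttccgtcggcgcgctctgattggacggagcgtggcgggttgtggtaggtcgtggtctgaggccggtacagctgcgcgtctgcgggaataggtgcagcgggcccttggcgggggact
FGF21 (chr19:48755274-48755573, + strand): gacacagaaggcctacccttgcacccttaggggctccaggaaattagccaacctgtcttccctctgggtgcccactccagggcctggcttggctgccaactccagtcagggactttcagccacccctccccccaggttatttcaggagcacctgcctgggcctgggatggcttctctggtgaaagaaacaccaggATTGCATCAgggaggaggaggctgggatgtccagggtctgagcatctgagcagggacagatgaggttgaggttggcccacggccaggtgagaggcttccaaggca
The element begins 210 bases before the start in CHAC1, 188 in AARS1 and 55 in FGF21. It was present in 5 of the 20 promoters found for ATF4 targets (ASNS, CHAC1, ATF3, FGF21 and HERPUD1), against 1.79% of the promoters of all tested genes and 3.67% of all 27305 promoters.

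FGF21 lies beside 3 other genes with large increases, a run of neighbours chosen after its values were seen. RASIP1, IZUMO1, FUT1 and FGF21 follow one another over 37.7 kb (chr19:48720585-48758333), with gaps of 241, 1101 and 133 bases, the first 3 on the minus strand and FGF21 on the plus strand. RASIP1 went from 33.3 and 50.9 to 770.2 and 761 normalized counts (4.18) and IZUMO1 from 26.9 and 27.4 to 705 and 725 (4.67). FUT1, a fucosyltransferase of blood group antigens, went from 1367 and 1459 to 5994 and 6284 (2.12), the highest level of the 4. The genes next to the run did not share the rise. MAMSTR, a cofactor of muscle transcription, did not pass (0.24, limma adjusted p = 0.265), and BCAT2, which opens the breakdown of branched-chain amino acids, fell by 0.87. The nearby FUT2, a second fucosyltransferase, fell by 0.72, and PPP1R15A, an ATF4 target that counters eIF2 phosphorylation, rose by 0.92 at 117 kb from FGF21. Further out on the other side SPACA4 (1.20) and the pseudogene SEC1P (1.06) rose from low levels.

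**Figure D2:**
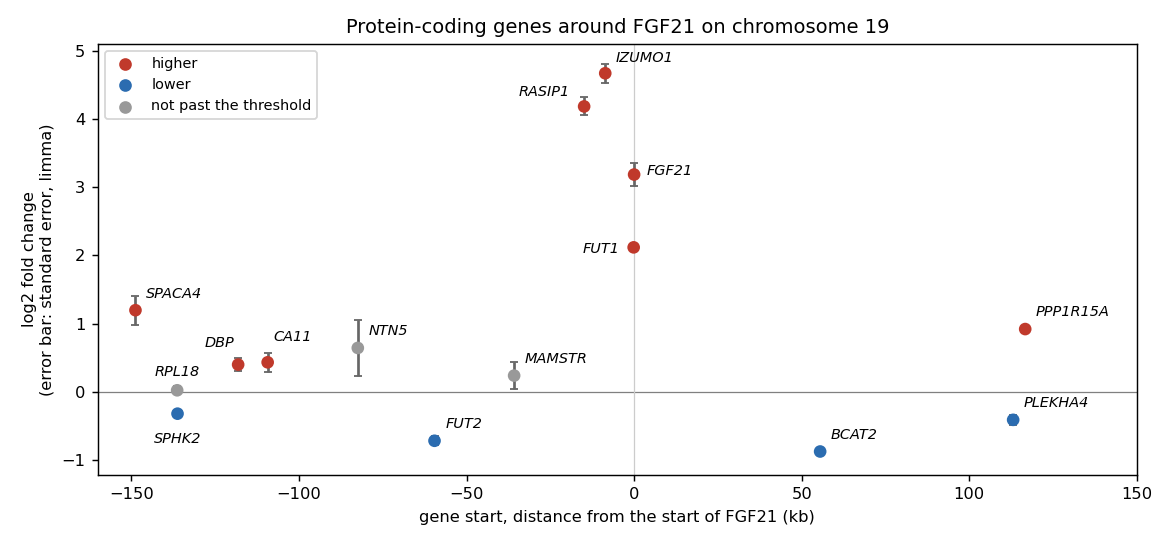
Log2 fold change (depleted over untreated, bars show the standard error) of tested protein-coding genes by distance in kb from the start of FGF21. RASIP1, IZUMO1, FUT1 and FGF21 stand between 2.12 and 4.67, and the genes on both sides at 0.24 and -0.87.

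Cytosolic aminoacyl-tRNA synthetases, which charge tRNA, and their cofactors split into rising and falling genes, with 12 of 24 higher and 7 lower and a median of 0.09, or -0.03 after quantile normalization. WARS1 (chromosome 14, 100333790 to 100376805), the synthetase that charges tryptophan, changed most. It stood at 9897 and 10871 normalized counts in untreated and 30546 and 31482 in depleted cells, a 2.99-fold rise (log2 fold change 1.58 ± 0.0491, SE, limma adjusted p = 4.35e-64). AARS1, for alanine, rose from 23692 and 24790.1 to 47049 and 47369.5 (0.96). EPRS1, for glutamate and proline, rose from 24579 and 26446 to 37388 and 38496 (0.57). The rise of WARS1 was thus the largest of 12, and no synthetase fell by 1 on the log2 scale. QARS1, for glutamine, had the largest decrease, from 12417 and 12767 to 8373 and 8043 (-0.62). CARS1, IARS1, NARS1, KARS1 and MARS1 did not pass, with log2 fold changes between 0.00 and 0.07. Of 19 promoters found for the list, 6 held the C/EBP-ATF response element. They belong to AARS1 and TARS1, which rose (0.96 and 0.12), and to CARS1, IARS1, MARS1 and NARS1, which did not pass.

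Among amino acid transporters, 11 of 24 rose and 10 fell (45.8% and 41.7%, against 36.1% and 34.8% of all members). The median was 0.05, or 0.28 among those with a mean of at least 50. The glycine transporter SLC6A9 rose from 1361 and 1489 to 5347 and 5355 (1.91). SLC1A4, for alanine, serine and cysteine, rose from 3273 and 3414 to 8221 and 8730.5 (1.34). SLC7A5 and SLC3A2 together form the exchanger LAT1, a main route for tryptophan and other large neutral amino acids, and both chains rose. SLC3A2, the heavy chain, went from 20498 and 21262 to 43151 and 45438 (1.08). SLC7A5, the transport chain, went from 40623 and 44106 to 65124 and 68509 (0.66). SLC7A7, a light chain for basic amino acids, fell from 1385 and 1374 to 321 and 343 (-2.05), and SLC16A10, a transporter of aromatic amino acids, fell by 1.58. The response element was found in 3 of 21 promoters of the list, those of SLC3A2, SLC7A1 and SLC38A1, which rose by 1.08, 0.47 and 0.47.

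Genes of serine, one-carbon and amino acid synthesis went in both directions, with 7 of 18 higher, 8 lower and a median of 0.02, or -0.05 after quantile normalization. These shares of 38.9% and 44.4% stand beside 36.1% and 34.8% of all members. ASS1, which makes argininosuccinate, rose from 3623 and 4009.8 to 14926 and 15028 (1.97). CTH, which makes cysteine, rose from 1014 and 1075 to 2691 and 2527 (1.32). SHMT1, the cytosolic serine hydroxymethyltransferase, fell from 3200.1 and 3059 to 732 and 763 (-2.06). The cytosolic folate enzyme MTHFD1 fell from 5689 and 5568 to 2008 and 2091 (-1.46). Their mitochondrial counterparts SHMT2 and MTHFD2 rose, by 0.79 and 0.42.

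Of the genes that sense amino acids through GCN2 and mTORC1, 19 of 34 rose and 8 fell, with a median of 0.22. EIF2AK4, which encodes GCN2, went from 2977 and 2945 to 3635 and 3727 (0.31, limma adjusted p = 5.5e-09). The sestrins, which restrain mTORC1, moved apart. SESN2, a leucine sensor, rose from 4790.4 and 4714 to 8842 and 9224 (0.93). SESN1 fell from 678 and 766 to 328 and 346 (-1.09). RRAGC, a GTPase that recruits mTORC1, rose from 616 and 695 to 1251 and 1295 (0.96), with other genes over 23.1% of its exonic bases on the same strand.

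The tryptophan-degrading enzymes that open the kynurenine pathway were barely read. IDO1 and IDO2 had 0 reads in all 4 libraries and TDO2 between 0 and 8, and none of them was tested. Of the 12 enzymes tested, 4 rose and 4 fell (33.3% each, against 36.1% and 34.8% of all members). The median was -0.01, or 0.01 after quantile normalization. KYNU, which splits kynurenine, rose from 233 and 251 to 749 and 725 (1.60). MAOA, which oxidizes serotonin, rose from 2301 and 2419.6 to 5149 and 5051 (1.11). In both genes the depleted libraries lay close together. AADAT, a kynurenine aminotransferase, went from 272 and 257 to 110.2 and 98.0 (-1.34). DDC, which decarboxylates aromatic amino acids, went from 1038 and 1053 to 368 and 389 (-1.47).

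Of 9 aryl hydrocarbon receptor targets, 7 rose and 1 fell, with a median of 0.84. CYP1A1, the best known target, was barely read in untreated cells, at 6.45 and 3.91 normalized counts, and stood at 81.1 and 63.0 in depleted cells (log2 fold change 3.58 ± 0.347, SE, limma adjusted p = 3.38e-18). CYP1B1, a related cytochrome, rose from 282 and 315 to 2207 and 2381 (2.94). The aldehyde dehydrogenase ALDH3A1 rose from 881 and 852 to 5622 and 5368 (2.66). These 3 enzymes of xenobiotic metabolism had the largest changes of the list. TIPARP and AHRR, which limit the receptor, rose by 0.84 and 1.29. AHR itself rose from 1921 and 1919.8 to 2794 and 2996 (0.59), with other genes over 29.5% of its exonic bases on the same strand.

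**Figure D3:**
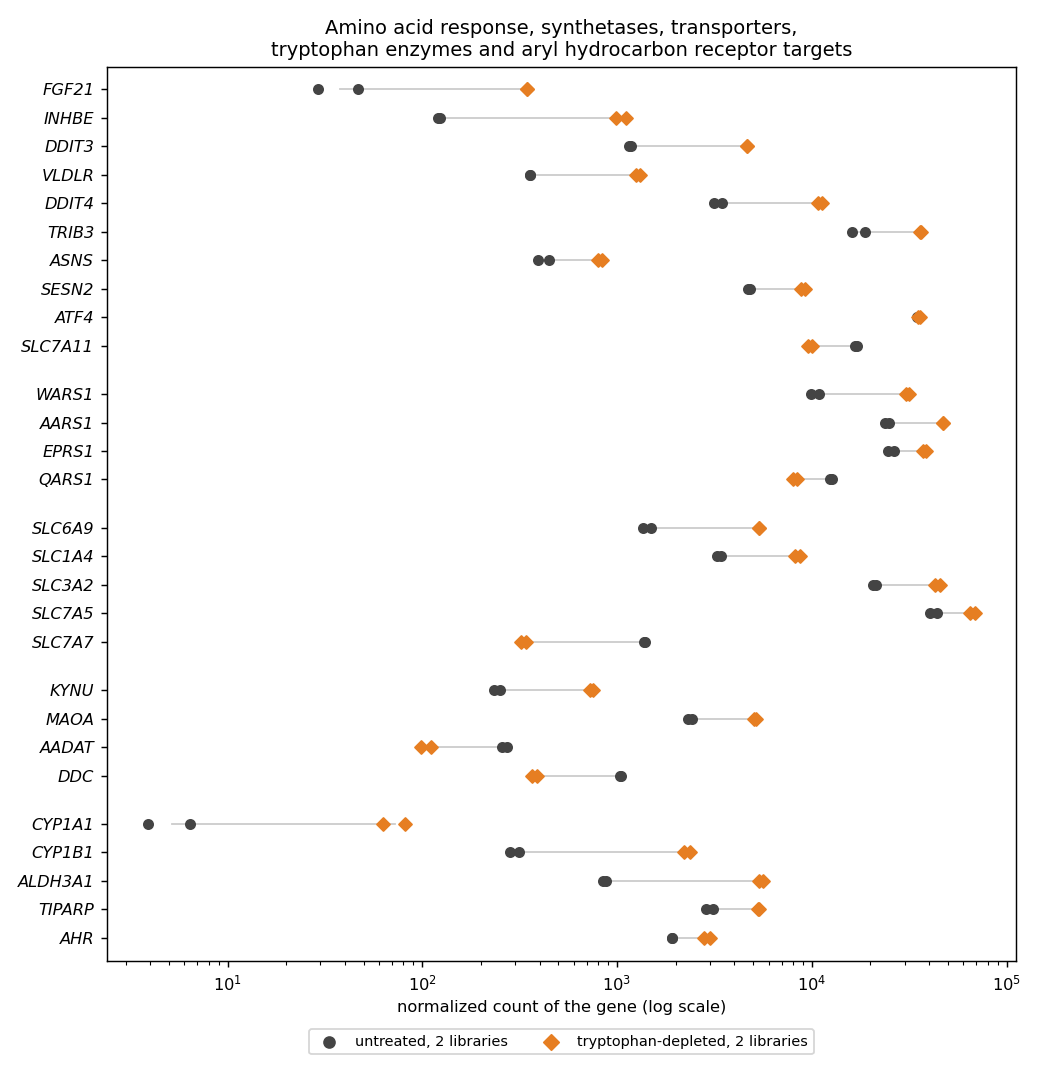
Normalized counts (log scale) of genes of the amino acid response, tRNA charging, transport, tryptophan metabolism and the aryl hydrocarbon receptor, one point per library. ATF4 is the gene shown whose groups overlap, and WARS1 moved from 9897 and 10871 to 30546 and 31482.

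All 30 tested genes of the unfolded protein response rose, by 0.20 to 2.03 on the log2 scale, with a median of 0.81. This response raises folding and disposal capacity in the endoplasmic reticulum. SEL1L, part of the machinery that removes misfolded proteins, rose from 4311 and 4351 to 17398 and 17894 (2.03). DNAJB9, a co-chaperone, rose from 1019.8 and 1169.7 to 4061 and 4311 (1.94). HSPA5, the chaperone BiP, rose from 31663 and 33813 to 107684 and 111145 (1.74, standard error 0.0588, limma adjusted p = 6.9e-60). The list thus moved in its disposal branch as well as in its folding branch. SEC24D, of the coat of export vesicles, rose from 3825 and 4121 to 12935 and 13244 (1.72). The stress sensors ERN1 and ATF6 rose by 1.63 and 1.30. The smallest rises were those of SDF2L1 (0.20), PDIA6 (0.23), CALR and XBP1 (0.30 each).

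The promoters of HSPA5 and CRELD2, which encodes an endoplasmic reticulum protein and rose by 0.80, are shown in the same windows. Capitals mark the endoplasmic reticulum stress response element, CCAAT, a gap of 9 bases and CCACG on either strand, which lies on the gene's strand in HSPA5 and on the opposite strand in CRELD2.
HSPA5 (chr9:125241294-125241593, - strand): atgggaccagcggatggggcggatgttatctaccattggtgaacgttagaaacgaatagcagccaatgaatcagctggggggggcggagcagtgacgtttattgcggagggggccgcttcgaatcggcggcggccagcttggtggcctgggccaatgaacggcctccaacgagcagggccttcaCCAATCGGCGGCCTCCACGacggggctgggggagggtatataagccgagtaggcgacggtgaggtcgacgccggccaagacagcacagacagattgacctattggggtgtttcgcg
CRELD2 (chr22:49918384-49918683, + strand): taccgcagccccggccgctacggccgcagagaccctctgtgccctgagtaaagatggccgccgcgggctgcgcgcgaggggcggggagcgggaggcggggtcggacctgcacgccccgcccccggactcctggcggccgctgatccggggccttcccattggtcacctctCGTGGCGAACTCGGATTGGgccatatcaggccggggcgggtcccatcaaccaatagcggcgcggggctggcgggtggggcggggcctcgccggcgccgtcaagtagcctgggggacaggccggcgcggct
This element was found in 7 of 27 promoters of the list (HSPA5, HSP90B1, CALR, CANX, CRELD2, XBP1 and ERO1B), against 0.122% of the promoters of tested genes and 0.0806% of all promoters.

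The list of heat shock proteins split, with 10 of 19 higher, 7 lower and a median of 0.17, or 0.11 after quantile normalization. DNAJB4, a co-chaperone of HSP70, rose from 676 and 685 to 1356 and 1399 (1.02). HSPA8, the constitutive HSP70, fell from 99964 and 100143 to 55308 and 56451 (-0.84). The cochaperonin HSPE1 fell from 1279.8 and 1229 to 621 and 670.1 (-0.96). The heat-inducible HSPA1A and HSPA1B, near-identical copies, rose by 0.27 and 0.52.

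Of 26 NRF2 targets, which serve detoxification and redox balance, 19 rose and 4 fell, with a median of 0.57. Besides AKR1C1 and AKR1C2, AKR1C3 rose from 3569.7 and 3813 to 17272 and 18009 (2.26). OSGIN1, an oxidative stress gene, rose from 792 and 819.6 to 2819.8 and 2847 (1.81). The ferritin chains FTL and FTH1 rose by 1.70 and 1.69. The 4 that fell were TXN (-0.87), SLC7A11 (-0.79), HMOX1 (-0.65) and CBR1 (-0.22). Among 50 lysosome and autophagy genes, 32 rose and 9 fell, with a median of 0.30. WIPI1, which binds the forming autophagosome, rose from 546 and 564 to 2464 and 2477 (2.15). GABARAPL1, which is coupled to its membrane, rose from 972 and 1056 to 3572 and 3728 (1.85). The autophagy receptor SQSTM1 rose from 19098 and 20235 to 57714 and 58681 (1.57). The largest decrease was that of GLA, a lysosomal galactosidase (-1.15).

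Interferon-stimulated genes rose in most cases, with 42 of 53 higher, 7 lower and a median of 0.91. IFI44L was at 29.0 and 26.4 normalized counts in untreated and 342 and 488 in depleted cells (3.84, standard error 0.164, limma adjusted p = 2.45e-48). The antiviral GTPase MX1 rose from 235 and 232 to 1049 and 1279.8 (2.31). MX2 rose from 88.1 and 79.2 to 376 and 559 (2.44). These genes were low in untreated cells. TRIM22, an antiviral ubiquitin ligase, and XAF1, which promotes apoptosis, rose by 2.84 and 2.64, and the transcription factors STAT2 and IRF9 by 0.86 and 1.04. IFI6, a mitochondrial protein, rose from 213 and 178 to 833 and 1117 (2.30), with other genes over 23.1% of its exonic bases on the same strand. HERC5, IFITM2 and IFITM3, which are also induced by interferon, were among the 7 that fell (-1.73, -1.16 and -1.12). The depleted libraries were less alike here than over all members. The second stood above the first in 49 of the 53 genes (92.5%), by a median of 0.14 on the log2 scale, against 56.9% and 0.01 over all members. Without the first depleted library the median of the list was 1.05 with 41 genes higher, and without the second 0.82 with 38 higher.

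The promoters of IFI44L and MX1 are shown with capitals on the core of the interferon-stimulated response element, GAAA, any 2 bases and GAAA on either strand.
IFI44L (chr1:78620198-78620497, + strand): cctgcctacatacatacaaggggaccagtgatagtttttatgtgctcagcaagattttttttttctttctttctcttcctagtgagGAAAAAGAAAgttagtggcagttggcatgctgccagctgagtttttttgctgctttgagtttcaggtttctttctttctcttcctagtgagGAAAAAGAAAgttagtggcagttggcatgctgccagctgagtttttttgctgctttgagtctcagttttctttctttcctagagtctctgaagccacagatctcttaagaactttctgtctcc
MX1 (chr21:41420308-41420607, + strand): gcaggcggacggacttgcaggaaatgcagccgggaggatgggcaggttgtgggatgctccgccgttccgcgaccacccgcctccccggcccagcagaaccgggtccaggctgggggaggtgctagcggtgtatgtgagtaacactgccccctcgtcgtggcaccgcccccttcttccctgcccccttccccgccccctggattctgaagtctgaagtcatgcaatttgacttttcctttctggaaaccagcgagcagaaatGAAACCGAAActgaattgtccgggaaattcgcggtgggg
The window of IFI44L holds the core at 2 places, 164 and 73 bases before the start, and that of MX1 holds it 11 bases past the start. The core was found in 25 of 41 promoters of the list, against 2.76% of the promoters of tested genes and 3.65% of all promoters.

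Genes of antigen presentation on MHC class I rose in 13 of 17 cases and fell in 2, with a median of 0.61. NLRC5, the transactivator of these genes, rose from 154 and 163 to 481 and 532 (1.67). HLA-B rose from 182 and 193 to 474 and 554 (1.45). The peptide transporter TAP1 rose from 227 and 201 to 526 and 651 (1.45). HLA genes are close copies, and other genes overlap 32.7% of the exonic bases of HLA-B on its strand. Those that fell were the peptidase ERAP2 (-0.70) and the proteasome activator PSME1 (-0.29).

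Of 19 targets of NF-kB, 11 rose and 4 fell, with a median of 0.27. LCN2, an iron-scavenging lipocalin, rose from 12210.3 and 12927 to 90549.7 and 89870.5 (2.84). The adhesion molecule ICAM1 rose from 304 and 279.7 to 678 and 709.6 (1.25). CD83, an immune surface protein, fell by 3.51 and TNFAIP3, which restrains NF-kB, also fell (-0.90). Cytokine and chemokine genes fell in 10 and rose in 6 of 23 cases, with a median of -0.39, or 0.21 among those with a mean of at least 50 and -0.22 without the second depleted library. CXCL8, the neutrophil chemokine, fell from 206 and 200.5 to 20.8 and 34.2 (-2.88). TNFSF15, a cytokine of the TNF family, rose from 2608 and 2519 to 6158 and 6472 (1.30). The growth factor CSF1 rose by 1.64, while the chemokines CXCL1 (-2.19) and CCL20 (-1.84) fell.

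Genes of cell division had the lowest medians of all 34 lists. All 50 genes of DNA replication and S phase fell, with log2 fold changes from -4.56 to -0.70, 46 of them by at least 1, with a median of -2.88. The summed level of the list was 186781 and 186829 normalized counts in untreated and 32752 and 32659 in depleted cells. In bulk RNA, fewer cycling cells and less of these messages in each cell cannot be told apart. CDC45, a part of the replicative helicase, went from 3284 and 3266 to 138 and 138 (-4.56). CLSPN went from 1501 and 1425 to 63.4 and 69.3 (-4.44). E2F2, a transcription factor of these genes, went from 467 and 398 to 18.7 and 16.2 (-4.55). Among the enzymes of nucleotide supply were TYMS (-3.92), RRM2 (-3.42) and TK1 (-3.67), and the helicase subunits MCM2 to MCM7 lay between -3.84 (MCM5) and -2.33 (MCM6). The smallest decrease was that of SLBP, which binds histone messages (-0.70).

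Of 48 genes of G2 and mitosis, 47 fell, with a median of -2.14, and NUSAP1 did not pass (0.52). MYBL2 fell from 13403 and 14018 to 618 and 606 (-4.48). The topoisomerase TOP2A fell from 27547 and 28874 to 2903 and 3026 (-3.25, standard error 0.0468, limma adjusted p = 1.05e-105). The ubiquitin enzyme UBE2C fell from 7766 and 8279 to 892 and 885 (-3.17). All 3 were abundant in untreated cells and remained well above the limit on the mean. MKI67, the proliferation marker, fell from 21937 and 23407 to 4408 and 4734 (-2.31). The kinase gene CDK1 and its cyclins CCNA2 and CCNB1 fell as well (-2.71, -2.64 and -1.87).

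The promoters of CLSPN and E2F2 are shown with capitals on an E2F site, TTTCCCGC in CLSPN (on the opposite strand) and TTTGGCGC in E2F2. That of TOP2A is shown with capitals on 2 copies of the cell cycle homology region, TTTGAA on either strand.
CLSPN (chr1:35769929-35770228, - strand): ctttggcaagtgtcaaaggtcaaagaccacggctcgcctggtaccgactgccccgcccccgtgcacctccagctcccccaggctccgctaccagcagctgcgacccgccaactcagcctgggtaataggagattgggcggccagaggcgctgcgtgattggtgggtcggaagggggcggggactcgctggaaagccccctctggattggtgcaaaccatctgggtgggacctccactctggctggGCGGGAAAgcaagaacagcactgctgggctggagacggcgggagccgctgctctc
E2F2 (chr1:23531184-23531483, - strand): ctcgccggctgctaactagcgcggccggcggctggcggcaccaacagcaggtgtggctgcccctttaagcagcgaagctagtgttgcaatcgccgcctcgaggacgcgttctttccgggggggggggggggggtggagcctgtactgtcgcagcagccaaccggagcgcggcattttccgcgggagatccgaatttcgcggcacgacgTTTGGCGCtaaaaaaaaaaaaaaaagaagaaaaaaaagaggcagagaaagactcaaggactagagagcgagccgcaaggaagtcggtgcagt
TOP2A (chr17:40417847-40418146, - strand): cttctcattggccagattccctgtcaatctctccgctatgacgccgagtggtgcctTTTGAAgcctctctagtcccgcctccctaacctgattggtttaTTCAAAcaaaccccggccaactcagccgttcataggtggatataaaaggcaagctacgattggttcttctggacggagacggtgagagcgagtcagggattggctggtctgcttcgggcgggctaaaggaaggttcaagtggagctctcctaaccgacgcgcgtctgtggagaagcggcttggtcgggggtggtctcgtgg
The E2F sites lie 5 bases before the start in CLSPN and 42 in E2F2, and the elements of TOP2A 194 and 151 bases before it. Among 42 promoters of the S phase list, 9 held TTTGGCGC and 11 held TTTCCCGC, against 1.01% and 2.55% of the promoters of tested genes and 0.659% and 1.66% of all promoters. The cell cycle homology region was found in 27 of 41 promoters of G2 and mitosis, against 9.93% of tested genes and 15.4% of all promoters, and in 1 of 42 of the S phase list.

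Of 14 G1 cyclins, kinases and inhibitors, 9 fell and 2 rose, with a median of -0.39, or -0.22 without the second untreated library. RBL1, a relative of the retinoblastoma protein, fell from 1720.4 and 1664 to 139 and 134 (-3.62). The kinase CDK2 fell from 2359.8 and 2239.6 to 819 and 822 (-1.49). The inhibitor CDKN2B rose from 1876 and 1965 to 4997 and 5161 (1.40). CDKN1A, the inhibitor p21, passed with a small rise, from 1132 and 1196 to 1368 and 1356 (0.23, limma adjusted p = 0.000371). CCND1, cyclin D1, passed with a small decrease, from 7553 and 8002 to 6412 and 6485 (-0.27). The p53 targets, which include CDKN1A, split into 11 higher and 9 lower of 22, with a median of 0.18. PHLDA3, an inhibitor of AKT with other genes over 18.4% of its exonic bases on the same strand, rose by 1.94, while the death receptor gene FAS (-2.31) and the oxidoreductase TP53I3 (-1.75) fell.

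Replication-dependent histone genes did not fall with the S phase list. Of 29 tested among 66, 21 rose and none fell, with a median of 1.09. H2AC6 rose from 592 and 602 to 3163 and 3479 (2.47). H2BC5 rose from 111 and 143 to 596 and 639 (2.29). H4C14 rose from 31.2 and 23.5 to 143 and 166 (2.47). Histone messages normally end in a stem loop without a poly(A) tail, and the libraries were made from polyadenylated RNA. Histone genes are close copies, and 37 of the 66 were below the limit on the mean.

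Cytosolic ribosomal proteins stayed near 0, with 23 of 79 higher, 24 lower, none by 1 on the log2 scale and a median of 0.02, or -0.07 after quantile normalization. These counts depended on single libraries. Without the first depleted library 7 were higher and 14 lower, without the second 8 and 13, without the first untreated library 25 and 36, and without the second 39 and 21. RPL22 had the largest change, from 12175 and 12683 to 7621 and 7640.4 (-0.70), and RPS13 the next, in the other direction (0.54). The genes that build ribosomes fell in 37 of 56 cases and rose in 8, with a median of -0.25. With the first or the second depleted library left out, 4 rose. The methyltransferase FBL, of the snoRNA particles, fell from 25515 and 26402 to 12412 and 12636 (-1.05). The processing factor RRP9 fell from 2751 and 2841 to 1194 and 1226 (-1.21). The nucleolar chaperone NPM1, which has many pseudogene copies, fell from 77678 and 83300.3 to 47073 and 47358 (-0.77). RRP12, an export factor, had the largest rise (0.67).

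Host genes of small nucleolar RNAs give rise to spliced messages that are destroyed through nonsense-mediated decay when ribosomes read them. They rose in 10 and fell in 6 of 16 cases, with a median of 0.36. GAS5 rose from 11078 and 11410.2 to 29084 and 29244 (1.38). ZFAS1 rose from 2378 and 2335 to 5896 and 6075 (1.34). SNHG7 (-1.05) and DANCR (-1.02) fell.

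Nuclear genes of the mitochondria fell moderately and in large numbers. Of 75 respiratory chain subunits, 63 fell and 4 rose, with a median of -0.45. NDUFA5, a subunit of complex I, fell from 2378 and 2650.3 to 912 and 869.7 (-1.49). NDUFA13, also of complex I, went the other way, from 74.1 and 63.6 to 179 and 199.7 (1.45), with other genes over 20.97% of its exonic bases on the same strand. NDUFV2 rose as well (1.06). NDUFB9, another subunit, fell from 14636 and 15067 to 6003 and 5834 (-1.33). Subunits of complexes II to V were among those that fell, such as SDHA (-1.03), COX6B1 (-0.87) and ATP5F1D (-0.91). Of 76 mitochondrial ribosomal proteins, 58 fell and 10 rose, with a median of -0.36. MRPL16 fell from 3887 and 4163 to 1751 and 1629.7 (-1.25). MRPS6 went the other way, from 970.3 and 1022 to 3734 and 3654 (1.89).

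The 13 messages of the mitochondrial genome gave no firm comparison, with 6 lower, 1 higher and a median of -0.13, since 11 of them overlapped between the groups. All 13 were lower in the second untreated library than in the first, with a median log2 difference of -0.45. MT-CO3 stood at 215265 and 159186 normalized counts in untreated and 138856 and 146221 in depleted cells. Without the first untreated library the median turned to 0.11, and MT-CO2 from -0.18 to 0.04. Without the second, MT-ND1 turned from 0.18 to -0.05.

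Cholesterol synthesis and uptake genes fell in 19 of 25 cases and rose in 3, with a median of -0.37. ACAT2, an acetyl-CoA acetyltransferase, fell from 1492 and 1598 to 336 and 389 (-2.09). FDPS, which makes farnesyl diphosphate, fell from 3030.3 and 2930.1 to 1574 and 1643 (-0.89). HMGCS1, which makes HMG-CoA for this pathway, fell from 6010.1 and 5917 to 4068 and 4094 (-0.55). Decreases were mostly under 1 on the log2 scale, with 2 genes beyond it.

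Fatty acid synthesis genes split into 6 higher and 6 lower of 14 (42.9% each, against 36.1% and 34.8% of all members), with a median of -0.01. ACSS2, which activates acetate, rose from 938 and 994 to 3659 and 3791 (1.95). The malic enzyme ME1 rose from 2199 and 2409 to 6903 and 7056 (1.60). MLXIPL, a glucose-responsive transcription factor, rose from 91.3 and 81.2 to 321 and 308 (1.86). The desaturase FADS2 fell by 3.06, and FASN, the fatty acid synthase, did not pass (0.03).

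Genes of glycolysis and hypoxia went both ways, with 16 of 36 higher, 15 lower and a median of -0.07, or -0.04 without the second untreated library. These shares of 44.4% and 41.7% stand beside 36.1% and 34.8% of all members. Members that fell include the glycolytic enzymes GPI (-0.82), TPI1 (-0.97), PGK1 (-0.53), ENO1 (-0.71) and LDHA (-0.45), while HK2, PFKFB3 and ENO2, which also act in glycolysis, rose (0.35, 0.19 and 0.21). GAPDH, often used as a reference gene, fell from 97728 and 102851 to 49384 and 48965 (-1.03), and it has 65 pseudogene copies by name. NDRG1, a stress-responsive gene, rose from 3982 and 4395 to 17758 and 18144 (2.10). The carbonic anhydrases moved apart. CA9 fell from 3024 and 2899.7 to 794 and 742 (-1.95). CA12 rose from 6113 and 5971 to 23294 and 23265 (1.95). VEGFA, the angiogenic growth factor, rose by 1.67. TXNIP, which restrains glucose uptake, rose from 4094 and 4184 to 38247 and 38531 (3.21). ACTB, another reference gene, fell from 194466 and 206783 to 144001 and 145539 (-0.47).

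The lists of intestinal cell identity each split. Of 19 goblet and secretory genes, 11 fell and 7 rose, with a median of -0.61. The second depleted library stood above the first in 5 of the 19 genes, with a median log2 difference of -0.12. REG4, a secreted lectin, fell from 378 and 389 to 14.6 and 10.8 (-4.83). ATOH1, the transcription factor that sets the secretory fate, fell from 190.2 and 241 to 15.6 and 13.5 (-3.79). The mucin MUC5B rose from 36.5 and 37.2 to 508 and 536 (3.79). MUC5AC, a mucin of the stomach and airways, rose as well (3.63). MUC2, the main mucin of goblet cells, went from 749 and 716 to 644 and 527 (-0.33), a call that was lost without the second depleted library (-0.18), without the trend in limma, after quantile normalization and in the fit on all 6 libraries.

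Of 15 enterocyte genes, 8 rose and 5 fell, with a median of 0.17. Among the 11 with a mean of at least 50 the median was 0.82, with 7 higher and 2 lower. KRT20, a keratin of mature enterocytes, rose from 10091 and 10579 to 53940.1 and 53925 (2.38). CEACAM6, a copy of the same family as CEACAM5, rose from 429 and 422 to 2259 and 2287 (2.42). Among those that fell were PHGR1, an epithelial gene (-2.60), FABP1, a fatty acid carrier (-3.26), and the peptide hormone gene GUCA2A (-3.98). CDX2, a transcription factor of intestinal identity, went from 461 and 449 to 412 and 359 (-0.24, limma adjusted p = 0.0108), and this call was lost without the second depleted library (-0.14).

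WNT targets and stem cell genes fell in 10 of 17 cases and rose in 4, with a median of -0.37. LGR5, the receptor that marks intestinal stem cells, fell from 751 and 747 to 68.6 and 49.5 (-3.66). The transcription factor SP5 fell from 182 and 251 to 35.3 and 37.8 (-2.52). CD44, a hyaluronan receptor, fell from 24076 and 24578 to 10156 and 9840.3 (-1.28). AXIN2 and RNF43, also targets of WNT, rose by 0.20 and 0.90, and SMOC2, a matrix protein, by 3.18.

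Of 23 mesenchymal and invasion genes, 15 rose and 5 fell, with a median of 0.55. LAMB3, a chain of laminin, rose from 7233 and 7773 to 46602 and 47999 (2.66). The matrix protein TNC rose from 202 and 246 to 1315 and 1467 (2.63). CCN2, a matricellular growth factor, rose from 703 and 698 to 2293 and 2815 (1.86). Among those that fell were the integrin chain ITGA2 (-1.47) and the matrix protein TGFBI (-0.74).

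Among the 6 metallothionein and zinc genes tested, 3 fell and 2 rose, with a median of -1.21. MT1E fell from 1915 and 2076 to 396 and 403 (-2.32). MT2A fell from 729 and 745 to 156 and 173 (-2.16). The zinc exporter SLC30A1 rose from 1912 and 1894 to 7443 and 7630.5 (1.98). Metallothioneins are close copies, so reads may have been shared among them.

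Across the promoters of all tested genes, the same motifs were spread unevenly over the classes of change. The C/EBP-ATF response element was found in 3.38% of the 1095 promoters of genes that rose by at least 1 (log2) in 2.13% of the 1174 of genes that fell by at least 1 and in 1.53% of the 2617 of genes that did not pass, against 1.79% of all tested. TTTGGCGC was found in 2.30% of the promoters of genes that fell by at least 1 and in 0.183% of those that rose by at least 1. TTTCCCGC was found in 4.86% and 1.00% and the cell cycle homology region in 18.6% and 11.2%. The interferon core lay between 2.60% and 3.29% in every class. The cyclic AMP response element, TGACGTCA, was found in 1.83% of the promoters of genes that rose by at least 1, in 2.81% of those that fell by at least 1 and in 3.14% of all tested. These shares are descriptions, and a match in 300 bases does not show that a factor binds there.

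Tryptophan is encoded by a single codon, TGG, so the share of this codon in a coding sequence is the share of tryptophan in the protein. Over 12959 nuclear protein-coding genes the median was 1.09 TGG per 100 codons. Spearman's rho with the log2 fold change was -0.027 across genes, which share libraries and are not independent, and -0.048 over the 10936 genes with a mean of at least 100. Genes without any TGG (786) had a median log2 fold change of -0.03. It was 0.07 in the class above 0 to 0.5 per 100 codons (1558 genes) and -0.17 in the class above 3 (488 genes), of which 48.4% fell and 32.2% rose. None of the 29 histone genes tested carries a TGG codon. The respiratory chain and mitochondrial ribosome lists, which fell, had medians of 1.55 per 100 codons each, the MHC class I list, which rose, 2.14, and the S phase list, which fell most, 0.590.

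Compared directly with histidine depletion, over 18264 genes in one fit of all 6 libraries, 14006 genes passed (76.7%), of which 6938 (38.0%) had the higher level without tryptophan and 7068 (38.7%) the lower one. RPMI was the base of the medium without histidine, so the missing amino acid and the base medium cannot be told apart here. In this fit a positive log2 difference means a higher level without tryptophan. ATF4 targets were higher without tryptophan in 20 of 23 cases and lower in 2, with a median difference of 1.26. FGF21 stood at 352 and 352 normalized counts of the joint scale without tryptophan and at 38.9 and 39.7 without histidine (log2 difference 3.13), beside 29.5 and 47.7 in untreated cells. INHBE and TRIB3 differed by 3.64 and 1.83. WARS1 stood at 31361 and 32051 without tryptophan, 6585 and 7089 without histidine and 10067 and 11056 untreated, so that the 2 depleted groups lay on opposite sides of the untreated one (log2 difference 2.21, limma adjusted p = 9.07e-17). AARS1 differed by 1.62. Of 19 heat shock proteins, all were lower without tryptophan, with a median difference of -1.43, and of 17 MHC class I genes 14 were lower and 2 higher, with a median of -0.74. NF-kB targets were lower in 15 of 19 cases (median -1.69), although LCN2 was far higher, at 92965 and 91496 against 5826 and 6448 (3.91). Histones were lower in 28 of 29 (median -1.93), so that H2AC6 stood at 3247 and 3542 against 7112 and 7062 (-1.06). Genes of endoplasmic reticulum chaperones were higher in 23 of 30 and lower in 5 (median 0.56). S phase genes were lower in 49 of 50 (median -1.36) and mitotic genes in 46 of 48 (median -1.58). Interferon-stimulated genes differed in both directions, with 24 higher and 22 lower of 53. Enterocyte genes were higher in 11 of 15 and lower in none (median 1.51). Of 9 aryl hydrocarbon receptor targets, 4 were higher without tryptophan and 2 lower, with a median difference of 0.30. ALDH3A1 stood at 5772 and 5465 without tryptophan, 236 and 241 without histidine and 896 and 866 untreated (log2 difference 4.55), CYP1B1 differed by 3.32, and TIPARP was lower without tryptophan (-0.32). The direct differences of CYP1A1 (0.04, adjusted p = 0.904 in limma), AHR (0.01, 0.856) and SPINK4 (-0.08, 0.854) did not pass.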

How the data were processed

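RNA from HT29 cells was sequenced as polyA-selected libraries, 2 untreated, 2 tryptophan-depleted and 2 histidine-depleted. Per the labels and the study's methods, the authors aligned reads with STAR 2.7.10a to GRCh38, counted them per gene with htseq-count 2.0.5 on gencode 38 and normalized with DESeq2 (version not given in the sources used here). The adapters carried molecular identifiers, and whether counting used them or the strand is not stated. The deposited signal values are counts divided by a size factor for each library, so whole reads could be recovered: 100% of values came out whole within 0.01. Gene types and positions came from gencode 44 (60357 of 60676 genes matched), and promoters from RefSeq on GRCh38.p14.

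Genes with a mean of at least 10 were tested with limma 3.58.1 (R 4.3.3, trend on) on log2(normalized count + 1), two-sided, with Benjamini-Hochberg adjustment at 0.05 over all 17960 genes. The direct comparison with histidine depletion used all 6 libraries rescaled together by median ratios. The alternatives tried were other pseudocounts (0.5 and 8), filters (none, or 50 as the lowest mean) and scaling (quantiles), limma with the trend switched off, count models on the recovered reads (edgeR 4.0.16, DESeq2 1.42.0), a block for the replicate number, the 6 libraries fitted together, and each library left out in turn. On simulated data with 192 changed genes among 17744, limma recovered 93.2% of them, and 6.28% of its calls were false. EdgeR recovered 93.75% with 5.26% of its calls false, and DESeq2 83.3% with 1.23% false. The simulation gave all libraries the same spread, while the untreated replicates differed more than the depleted ones (median absolute log2 difference 0.0981 against 0.0668). In addition 70.8% of the members passed in the data, so these false shares need not carry over. TGG codons were counted in canonical coding sequences of gencode 44, without the mitochondrial genome, since no protein table was used here. Motifs were searched on both strands of 300-base promoter windows. Named genes followed a rule of size given with the results, and a few that it names are not reported here. The members and lists were chosen with earlier results of these data known, so lists are described by counts and medians, with no test of their own.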

Additional observations from a re-analysis of the deposited data

How the results depend on the processing

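The counts of genes called moved little with the processing. As reported, 6475 genes were higher and 6246 lower. EdgeR on the recovered reads gave 6490 and 6349, DESeq2 5423 and 5354, limma without the trend 5619 and 5452 and quantile normalization 6584 and 6099. Leaving out 1 library gave 5462 to 6542 higher and 5442 to 6249 lower. Of 80 such counts, 79 lay within 1.5 times the main value. The exception was genes higher with a log2 fold change of at least 1, 1801 as reported and 1121 when the lowest mean was set to 50, where fewer genes were tested. The rank correlation of TGG codons with the log2 fold change was -0.048 at a mean of at least 100. Same-numbered libraries did not deviate together over all members (correlation 0.0074). This cannot show whether they shared a culture or a batch. With the replicate block, 6501 genes were higher and 6265 lower. Of 476 list medians under alternatives, 414 moved by less than the spread between replicates and 11 changed sign, all in lists with medians near 0 apart from the cytokines (-0.39, and 0.21 at a mean of at least 50). Among the named genes, 2283 of 2323 values kept their direction and their side of the threshold. In 35 the call was lost, all in MT-CO2, MT-CO3, MT-CYB, MT-ND1, MTF1, MUC2 and CDX2. Direction turned in 5. Leaving out 1 library gave -0.05 to 0.41 for MT-ND1, -0.40 to 0.04 for MT-CO2 (0.0438 without untreated replicate 1) and -0.0042 to 0.0271 for ATF4 (-0.00101 without depleted replicate 2), and ATF4 stood at -0.18 after quantile normalization. The causes were not tested. With 46390819 to 59514618 reads per library, depth limits the genes left with few reads, whose log2 fold changes depend on the pseudocount. IDO1 and IDO2 were at 0 reads, and expression under the limit that a count of 0 allows was not detectable.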

Other observations

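The genes that follow lie outside the lists and were chosen after their values were seen, so they stand for themselves and not for a group. CYP24A1, which breaks down vitamin D, went from 219 and 193 normalized counts in untreated cells to 2794 and 2771 in depleted cells, and the calcium channel TRPV6 from 158 and 154 to 1229 and 1437, log2 fold changes of 3.75 and 3.08. G0S2, an inhibitor of fat breakdown, went from 268 and 283 to 3806 and 3914 (3.81). The lipid droplet protein PLIN4 went from 607 and 611 to 3041 and 3293 (2.38). PDK4, which holds back the use of pyruvate, went from 429.8 and 443 to 1670.3 and 1781 (1.98). ARRDC4, an arrestin related to TXNIP, rose from 325 and 367 to 3636 and 3822 (3.43). ARG2, the mitochondrial arginase, rose from 139 and 146 to 900.1 and 857 (2.62). NIBAN1, a gene of the stress response, rose from 1628 and 1933 to 12377 and 12873 (2.83) and CCPG1, a receptor for autophagy of the endoplasmic reticulum, from 471 and 538 to 2239.8 and 2272 (2.16). TBX15, a developmental transcription factor, was nearly unread in untreated cells, at 6.45 and 8.80, and stood at 288 and 321 in depleted cells (5.16). The transcription factors KLF9, BCL6 and THRB, the thyroid hormone receptor beta, rose by 2.31, 2.15 and 2.27 on the log2 scale.

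On the other side, ADH1C, an alcohol dehydrogenase, fell from 332 and 329.6 to 7.28 and 6.30 (-5.42) and DKK1, a secreted inhibitor of WNT, from 1152 and 1315 to 72.8 and 107 (-3.79). STMN1, which destabilizes microtubules, fell from 11351 and 12276 to 914 and 836 (-3.75). TUBA1B, an alpha tubulin, fell from 12407 and 11996 to 2024 and 1969.7 (-2.61). The lamin LMNB1 fell from 9027 and 9194 to 1193 and 1161 (-2.95) and the chromatin remodeller HELLS from 2942 and 3003 to 204 and 196 (-3.89). The oxidase NOX1, an epithelial source of superoxide in the colon, fell from 572 and 605 to 57.2 and 67.5 (-3.22). All of these genes passed limma at an adjusted p under 0.05, as did 70.8% of the members. In none did the groups overlap, as in 84.1% of the members. Both follow largely from choosing the genes after their values were seen. Other genes cover 38.9% of the exonic bases of CCPG1 on its own strand, and 39.6% of those of ARG2 and 43.96% of those of TUBA1B on the opposite strand.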
